A study of Mus musculus with 24 samples.

Results

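The melanocyte lineage was followed in keratinocyte cultures through 10 genes. Tyr, Tyrp1 and Dct encode the enzymes of melanin synthesis, Pmel, Mlana and Slc45a2 encode proteins of the melanosome, Trpm1 encodes a cation channel, Mitf and Sox10 encode transcription factors, and Kit encodes a receptor tyrosine kinase. The genes were chosen by symbol as markers of melanocytes, and each was measured by the probe set that carried its symbol alone and had the highest mean over all 24 arrays. All 10 genes were found among the 19937 genes tested, and no filter on low values was applied. Mitf alone had another probe set, whose mean log2 level was 3.70 and which correlated with the probe set used at r = 0.402 over the 24 arrays.

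The cultures were primary keratinocytes, epidermal cells grown outside the animal, from C57/BL6 mice that were wild-type or null for Ppar-beta. This nuclear receptor, the product of Ppard, is activated by fatty acids, and the labels do not say which part of the gene was deleted. Cells were mock transduced or carried a retrovirus with activated Hras, a growth-promoting oncogene, for 48 hours, and received 1 uM GW0742, a synthetic agonist of the receptor, or the vehicle DMSO for 24 hours. Crossing genotype, virus and ligand gave 8 groups of 3 arrays: wild-type mock DMSO, wild-type mock GW0742, null mock DMSO, null mock GW0742, wild-type Hras DMSO, wild-type Hras GW0742, null Hras DMSO and null Hras GW0742. The mice's age, the number of animals behind each culture and the origin of the replicates are not stated in the labels. The p-values therefore reflect array-to-array spread alone, which could be technical. No sorting of cells is stated, and every value is that of a whole culture. In such bulk RNA, fewer melanocytes and less RNA of these genes per melanocyte cannot be told apart.

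Melanocytes arise from the neural crest and make melanin in melanosomes, organelles that they pass on to keratinocytes. SOX10 activates Mitf, and MITF in turn activates many pigment genes, among them Tyr, Tyrp1, Dct, Pmel, Mlana and Trpm1. KIT binds stem cell factor, the product of Kitl, which keratinocytes make, and the signal is needed for melanocytes to survive and migrate. Some of these genes also mark other cells: Kit is expressed in mast cells and Sox10 in Schwann cells.

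Because MITF is a known activator of several of these genes, the bases just upstream of their start sites are shown with a motif it binds. Windows of 250 bases upstream of an annotated start were taken from RefSeq (GRCm38.p6) for 6 of the 10 genes, 10 windows in all, since some genes have several starts. They belong to Tyrp1, Tyr, Dct, Trpm1, Mitf and Kit, and Mlana, Pmel, Sox10 and Slc45a2 were not analysed here. The motif searched was TCATGTG on both strands (CACATGA when read on the other), and capitals mark it below. The shorter CATGTG lies inside it and had no further match in these windows.
Tyrp1: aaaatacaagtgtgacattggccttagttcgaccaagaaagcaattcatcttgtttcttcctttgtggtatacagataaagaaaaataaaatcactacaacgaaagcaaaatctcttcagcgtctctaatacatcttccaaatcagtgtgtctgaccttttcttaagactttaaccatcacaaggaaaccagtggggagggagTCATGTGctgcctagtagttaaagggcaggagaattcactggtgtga
Tyr: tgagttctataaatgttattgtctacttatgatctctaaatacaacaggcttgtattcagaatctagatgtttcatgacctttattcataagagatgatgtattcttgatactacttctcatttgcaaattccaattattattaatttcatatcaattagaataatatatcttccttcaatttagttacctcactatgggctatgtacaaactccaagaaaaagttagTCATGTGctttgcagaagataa
Dct: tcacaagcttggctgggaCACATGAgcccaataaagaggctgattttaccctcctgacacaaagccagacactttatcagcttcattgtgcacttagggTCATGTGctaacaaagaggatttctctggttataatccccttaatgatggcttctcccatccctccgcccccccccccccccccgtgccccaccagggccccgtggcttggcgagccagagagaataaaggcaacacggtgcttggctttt
Trpm1: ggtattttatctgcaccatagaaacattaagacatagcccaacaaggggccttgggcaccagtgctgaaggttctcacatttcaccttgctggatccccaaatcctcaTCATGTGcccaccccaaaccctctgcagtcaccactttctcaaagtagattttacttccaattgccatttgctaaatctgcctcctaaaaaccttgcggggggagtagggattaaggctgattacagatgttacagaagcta
The Tyrp1 window is chr4:80833963-80834212 on the plus strand, with the motif 47 to 41 bases upstream of the start. The Tyr window is chr7:87493513-87493762 on the minus strand, with the motif 22 to 16 bases upstream. In Dct, at chr14:118052247-118052496 on the minus strand, the motif lies 151 to 145 bases upstream, and again on the other strand 232 to 226 bases upstream. In the Trpm1 window at chr7:64153585-64153834, on the plus strand, it lies 142 to 136 bases upstream. The motif was in 4 of the 10 windows, and these 4 belong to 4 of the 6 genes; the other Trpm1 window and the Kit and Mitf windows did not hold those letters. Of 32851 windows of the same length over all genes, 3.25% held TCATGTG and 12.3% held CATGTG. A match is a description of these letters and not a measured binding site. No other motif was searched, so a window without these letters may still hold a site for MITF.

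Ppard, the gene removed in the null cells, was lower on the null arrays in each of the 4 conditions, although its probe set may lie partly outside the deletion. Its log2 level was between 11.12 and 11.29 on the wild-type mock arrays and between 10.60 and 10.80 on the null mock arrays. With Hras it was between 11.61 and 11.84 in wild-type cells and between 11.21 and 11.47 in null cells. The differences lay between -0.57 ± 0.06 and -0.28 ± 0.06 (SE). Krt5, a keratin of basal keratinocytes, had a mean of 14.25 in wild-type mock DMSO cells. Over all genes, the median SD within a group was between 0.0647 and 0.0798 in 7 groups and 0.122 in null Hras GW0742 cells. Values below are log2 levels, changes are log2 differences ± SE from a limma model of all 24 arrays, and adjusted p-values are limma's, with Benjamini-Hochberg adjustment over all 19937 genes and a threshold of 0.05. Levels are compared between groups within a gene, never between genes.

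**Figure D1:**
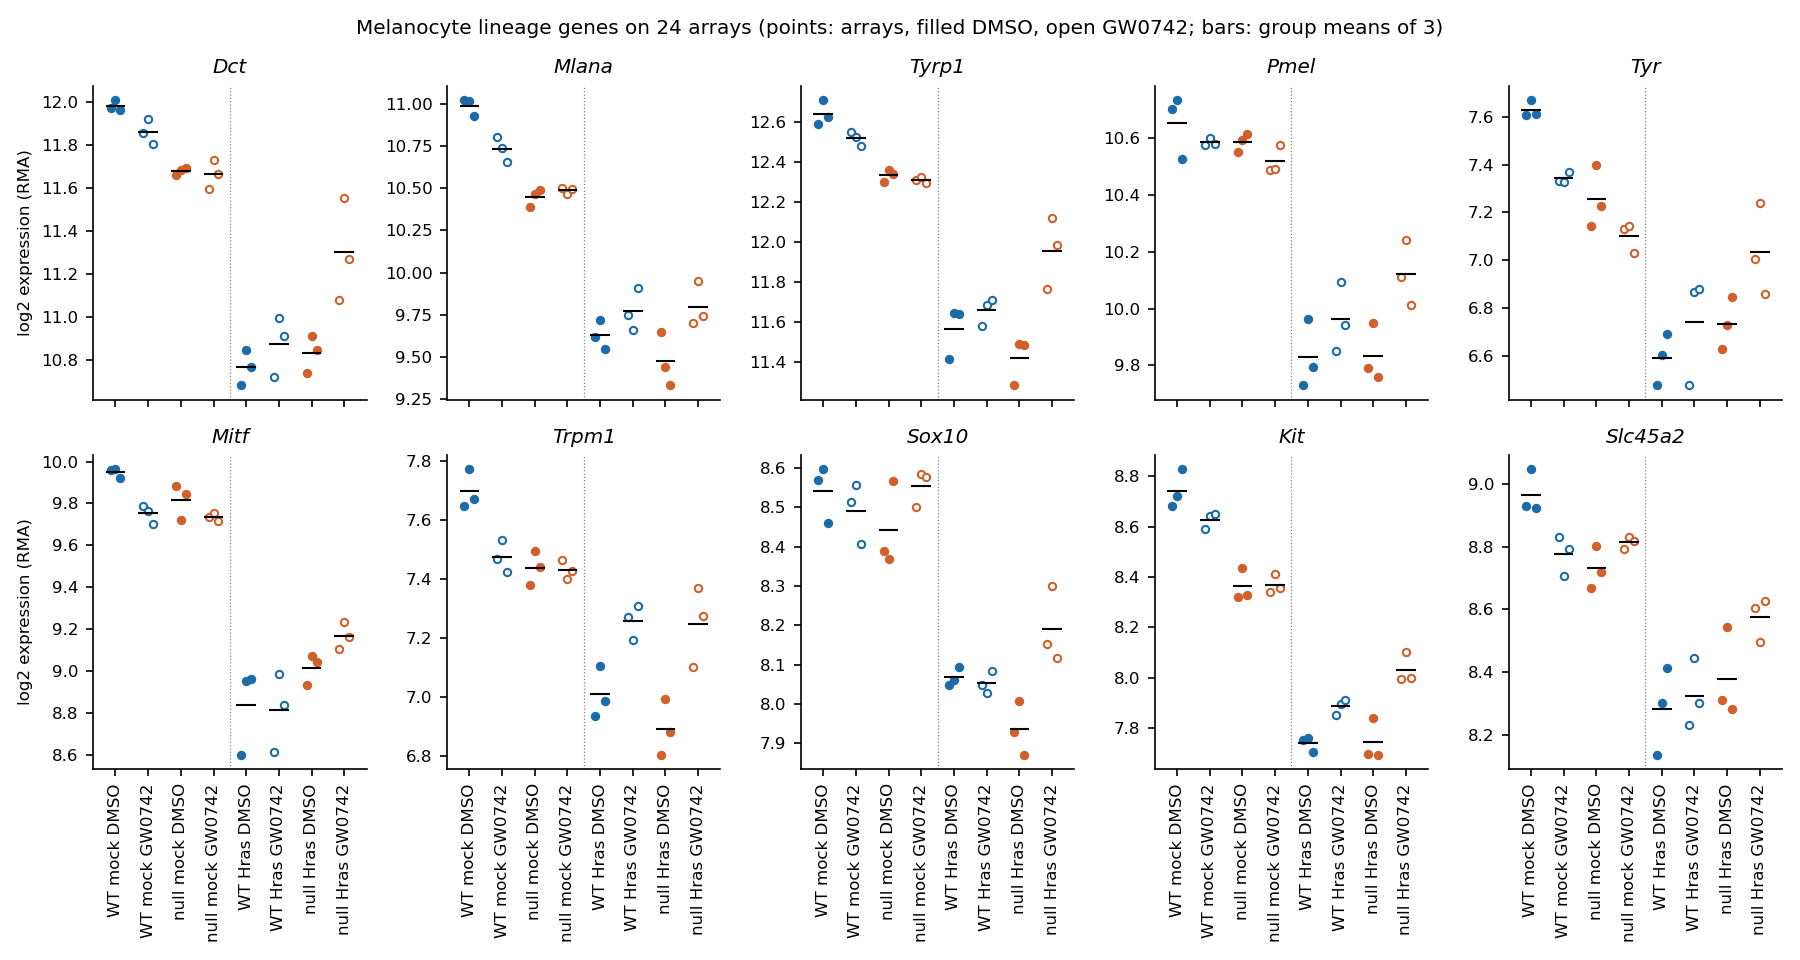
Log2 level (RMA, y axis) of each of the 10 melanocyte genes on every array, by group (x axis), with filled points for DMSO, open points for GW0742, blue for wild-type (WT) and orange for Ppard-null cells. Black bars are means of 3 arrays and the dotted line separates mock from Hras groups. For 9 of the 10 genes the 12 Hras arrays lie below the 12 mock arrays, and null Hras GW0742 arrays lie near the top of the Hras groups.

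With activated Hras, 9 or 10 of the 10 melanocyte genes fell in each of the 4 combinations of genotype and ligand. In wild-type DMSO cells 10 of 10 fell, where 19.0% of all genes were called lower, and the median difference was -1.02 against 0.02 over all genes. The range ran from -1.36 ± 0.08 for Mlana, a melanosome protein and melanoma antigen, to -0.47 ± 0.06 for Sox10. In these wild-type DMSO arrays the highest Hras array was below the lowest mock array for 10 of 10 genes, as it was for 24.2% of all genes. When all 12 Hras arrays were set against all 12 mock arrays, 9 of 10 genes still showed no overlap, against 8.76% of all genes. Tyr was the exception, with 5 mock arrays below the highest Hras array.

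Among the enzymes of melanin synthesis, Tyrp1 stabilises tyrosinase and acts late in the making of eumelanin. On the wild-type DMSO arrays Tyrp1 was at 12.59, 12.71 and 12.63 without Hras and at 11.42, 11.65 and 11.64 with it. In null DMSO cells its levels were 12.30, 12.36 and 12.34 without Hras and 11.29, 11.49 and 11.49 with it. The sets of arrays did not overlap in either genotype, and the change was -1.07 ± 0.08 in wild-type cells (adjusted p = 2.01e-10) and -0.91 ± 0.08 in null cells (adjusted p = 2.52e-09). Dct, the dopachrome tautomerase, was at 11.97, 12.01 and 11.96 on wild-type mock DMSO arrays and at 10.68, 10.85 and 10.77 on wild-type Hras DMSO arrays. No Hras array came within 1 log2 unit of a mock array in that comparison, and Dct fell by 1.21 ± 0.09 (2.32-fold, adjusted p = 1.86e-10). In null DMSO cells Dct went from 11.66, 11.69 and 11.69 to 10.74, 10.91 and 10.85, a fall of 0.84 ± 0.09 (adjusted p = 4.96e-08).

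Tyr encodes tyrosinase, the rate-limiting enzyme of the pathway. Its wild-type DMSO arrays were at 7.61, 7.67 and 7.61 without Hras and at 6.48, 6.61 and 6.69 with it, a change of -1.04 ± 0.10 (adjusted p = 1.92e-08). Null DMSO arrays were at 7.14, 7.40 and 7.23 without Hras and at 6.63, 6.73 and 6.85 with it, and Tyr fell by 0.52 ± 0.10 (adjusted p = 0.00018). Without Hras the null arrays lay below the wild-type arrays, and with Hras the genotypes overlapped. Its null GW0742 arrays were at 7.13, 7.14 and 7.03 without Hras and between 6.86 and 7.24 with it. Those groups overlapped, and the difference of -0.07 ± 0.10 (adjusted p = 0.67) was the single Hras difference of these genes that did not pass.

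Among the melanosome proteins, Pmel forms the fibrils on which melanin is laid down. Over the 12 mock arrays it ranged from 10.49 to 10.73 with a median of 10.58, and over the 12 Hras arrays from 9.73 to 10.24 with a median of 9.94. Mlana, which acts with Pmel in melanosome maturation, ranged from 10.39 to 11.02 (median 10.58) without Hras and from 9.33 to 9.95 (median 9.68) with it. Both genes left a gap between mock and Hras arrays, of 0.25 for Pmel and 0.44 for Mlana. Slc45a2, a transporter that keeps melanosomes at the right pH, ranged from 8.67 to 9.05 (median 8.81) without Hras and from 8.14 to 8.63 (median 8.36) with it, a gap of 0.04. In wild-type DMSO cells the changes were -0.83 ± 0.08 for Pmel (adjusted p = 8.13e-09), -1.36 ± 0.08 for Mlana (adjusted p = 5.51e-12) and -0.68 ± 0.08 for Slc45a2 (adjusted p = 1.66e-07).

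Trpm1, the channel gene whose intron hosts a microRNA of melanocytes, had a narrower gap. Its mock arrays ranged from 7.38 to 7.77 (median 7.47) and its Hras arrays from 6.80 to 7.37 (median 7.10), which left 0.01 between the sets. Trpm1 fell by 0.69 ± 0.07 in wild-type DMSO cells (adjusted p = 1.99e-08) and by 0.55 ± 0.07 in null DMSO cells (adjusted p = 5.67e-07). With GW0742 the changes were smaller, at -0.22 ± 0.07 in wild-type cells (adjusted p = 0.0132) and -0.18 ± 0.07 in null cells (adjusted p = 0.0312). The call with GW0742 in wild-type cells was lost without wild-type mock GW0742 replicate 2 (adjusted p = 0.0642) or wild-type Hras GW0742 replicate 2 (adjusted p = 0.0649). In null cells it was lost without null mock GW0742 replicate 1 or 3 or without null Hras GW0742 replicate 1, at adjusted p = 0.0935, 0.0656 and 0.196, and the last of these moved the change to -0.11. It was also lost in a model of those 6 arrays (adjusted p = 0.142), with trend and robust moderation (adjusted p = 0.0628) and with array weights (-0.08, adjusted p = 0.231).

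The regulators fell as well. Mitf, the master transcription factor of the lineage, ranged from 9.70 to 9.96 over the mock arrays (median 9.78) and from 8.60 to 9.24 over the Hras arrays (median 8.97). That gap of 0.47 was the widest among the 10 genes, and the change in wild-type DMSO cells was -1.11 ± 0.09 (adjusted p = 7.04e-10). With the mean of its 2 probe sets Mitf still fell, by 0.58 in wild-type DMSO, 0.53 in wild-type GW0742 and 0.35 in null GW0742 cells, against 1.11, 0.94 and 0.57 with the probe set used. Sox10 ranged from 8.37 to 8.60 (median 8.53) without Hras and from 7.87 to 8.30 (median 8.06) with it. Its fall was alike in wild-type and null DMSO cells, at -0.47 ± 0.06 (adjusted p = 1.62e-06) and -0.51 ± 0.06 (adjusted p = 5.63e-07). Kit, the receptor for stem cell factor, was at 8.68, 8.72 and 8.83 on wild-type mock DMSO arrays and at 7.75, 7.76 and 7.70 with Hras. In null DMSO cells Kit was at 8.32, 8.44 and 8.33 without Hras and at 7.70, 7.84 and 7.69 with it. The null mock arrays were the lower of the 2 mock sets while the Hras sets overlapped, and Kit fell by 1.00 ± 0.05 in wild-type cells (adjusted p = 1.15e-12) and by 0.62 ± 0.05 in null cells (adjusted p = 2.66e-09).

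The other 3 conditions gave the same direction. In wild-type GW0742 cells 10 of 10 fell, with 17.5% of all genes called lower and a median difference of -0.68, and 10 of 10 had no overlap of arrays (24.0% of all genes). In null DMSO cells 10 of 10 fell, with 20.5% of all genes and a median of -0.69, and 10 of 10 had no overlap (24.4% of all genes). In null GW0742 cells 9 of 10 fell, with 20.7% of all genes, and 9 of 10 had no overlap (22.2% of all genes). The median there was -0.36, from -0.69 ± 0.08 for Mlana to the -0.07 of Tyr. Without null Hras GW0742 replicate 2, Slc45a2 also missed the threshold there (-0.20, adjusted p = 0.0704). With array weights the count was 7, since Dct (-0.15, adjusted p = 0.0611) and Trpm1 were lost, and Tyrp1 passed at -0.21. Null Hras GW0742 replicate 2 then weighed 4.606, against 0.219 and 0.315 for replicates 1 and 3. The medians over all genes in these 3 comparisons lay between -0.02 and 0.00.

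**Figure D2:**
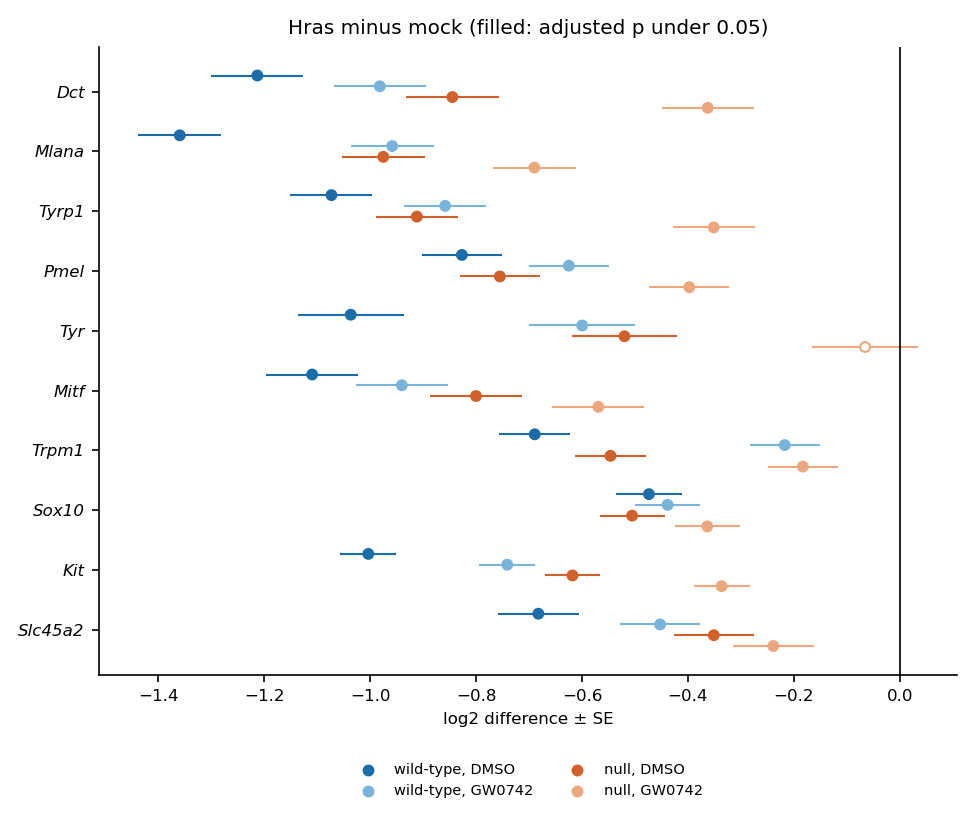
Log2 difference between Hras and mock cells (x axis) of each of the 10 genes, with bars of ± 1 SE from the model of 24 arrays, in the 4 conditions named in the key. Filled points passed adjusted p under 0.05, and the one open point is Tyr in null GW0742 cells. Dark blue points (wild-type DMSO) lie farthest from 0 for 9 of the 10 genes.

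For part of the genes the fall with Hras was smaller in null cells than in their wild-type counterparts. In DMSO the difference between the 2 Hras effects passed for 5 of 10 genes, all toward a smaller fall in null cells, where 8.35% of all genes were called in that direction. These were Tyr at 0.52 ± 0.14 (adjusted p = 0.0136), Kit at 0.39 ± 0.07 (adjusted p = 0.00087), Mlana at 0.38 ± 0.11 (adjusted p = 0.0196), Dct at 0.37 ± 0.12 (adjusted p = 0.0443) and Slc45a2 at 0.33 ± 0.11 (adjusted p = 0.0374). For Sox10 the difference was -0.03 ± 0.09 and for Pmel 0.07 ± 0.11, neither past the threshold. The count was 3 without wild-type mock DMSO replicate 1 or 2, null mock DMSO replicate 1 or 3, wild-type Hras DMSO replicate 1 or 3, or null Hras DMSO replicate 2. Kit passed under every alternative that was run, and Tyr under every one in which it was tested. Mlana missed at adjusted p = 0.0511 without wild-type Hras DMSO replicate 3 and at 0.057 without null Hras DMSO replicate 1, while Dct was lost without each array but wild-type Hras DMSO replicate 2 and null Hras DMSO replicate 1 (adjusted p between 0.0658 and 0.116). Slc45a2 was lost in a model of the 12 DMSO arrays (adjusted p = 0.0786) and without wild-type mock DMSO replicate 1 or 2, null mock DMSO replicate 1 or 3, wild-type Hras DMSO replicate 1 or 2 or null Hras DMSO replicate 2 (adjusted p between 0.051 and 0.128).

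With GW0742 that difference passed for 5 of 10 genes, with 11.5% of all genes called in that direction. Dct differed by 0.62 ± 0.12 (adjusted p = 0.000727), Tyr by 0.53 ± 0.14 (adjusted p = 0.00744), Tyrp1 by 0.51 ± 0.11 (adjusted p = 0.0015), Kit by 0.40 ± 0.07 (adjusted p = 0.000339) and Mitf by 0.37 ± 0.12 (adjusted p = 0.0308). The Mitf call was lost when the mean of its 2 probe sets was used (0.18, adjusted p = 0.407), and it was lost without any of 6 single arrays. Those 6 were wild-type mock GW0742 replicates 1 and 2, null mock GW0742 replicates 1 and 3, wild-type Hras GW0742 replicate 1 and null Hras GW0742 replicate 2, with adjusted p between 0.0522 and 0.107. The DMSO and GW0742 differences come from separate arrays. The labels do not say whether the cells behind those arrays were prepared separately.

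Without Hras, several of the genes were lower in null cells. In mock DMSO cells 6 of 10 were lower, where 5.53% of all genes were called lower, and the median was -0.28 against 0.03 over all genes. Mlana was at 11.02, 11.02 and 10.93 on the wild-type arrays and at 10.39, 10.47 and 10.49 on the null arrays, a change of -0.54 ± 0.08 (adjusted p = 6.35e-05). The null arrays all lay below the wild-type arrays, as they did for 8 of the 10 genes and for 13.4% of all genes. Kit, at the levels given above, differed by -0.38 ± 0.05 (adjusted p = 3.46e-05). The other 4 were Tyr at -0.37 ± 0.10 (adjusted p = 0.0172), Tyrp1 at -0.31 ± 0.08 (adjusted p = 0.0111), Dct at -0.30 ± 0.09 (adjusted p = 0.0284) and Trpm1 at -0.26 ± 0.07 (adjusted p = 0.0131).

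The regulators and the remaining melanosome genes did not pass in that comparison. Slc45a2 was at 8.93, 9.05 and 8.92 on wild-type and at 8.67, 8.80 and 8.72 on null arrays, a difference of -0.24 ± 0.08 (adjusted p = 0.0514). Mitf differed by -0.13 ± 0.09, Sox10 by -0.10 ± 0.06 and Pmel by -0.07 ± 0.08, with adjusted p of 0.414, 0.369 and 0.667. The count of 6 fell to 2 without wild-type mock DMSO replicate 2 and to 3 without null mock DMSO replicate 1, and Dct missed the threshold without any of the 6 arrays in turn (adjusted p between 0.0619 and 0.0911). Tyrp1 was lost without wild-type mock DMSO replicate 2 (adjusted p = 0.0602), Trpm1 without that array or null mock DMSO replicate 1 (0.079 and 0.0605), and Tyr without either of these or null mock DMSO replicate 3 (between 0.0647 and 0.0828). Mlana and Kit passed in each case.

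In mock GW0742 cells 2 of 10 genes were lower in null cells, against 10.9% of all genes: Mlana at -0.24 ± 0.08 (adjusted p = 0.0284) and Kit at -0.26 ± 0.05 (adjusted p = 0.000953). Mlana was at 10.80, 10.74 and 10.66 on the wild-type arrays and at 10.50, 10.46 and 10.50 on the null arrays, with no overlap, as for 6 of 10 genes and 18.8% of all genes. Leaving out wild-type mock GW0742 replicate 1 or 2 or any of the 3 null mock GW0742 arrays took the Mlana call away (adjusted p between 0.056 and 0.117). The median of the 10 genes was -0.13.

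With Hras and DMSO no melanocyte gene passed between the 2 genotypes. The count was 0 of 10 by limma, where 19.4% of all genes were called in either direction, 1 gene (Sox10, at -0.13 ± 0.06) was under an unadjusted p of 0.05 (5923 of all 19937 genes), and the median was 0.00 against 0.02 over all genes. Intervals of 95% ran from -0.32 (the lower bound for Mlana) to 0.36 (the upper bound for Mitf), so differences of that size remain possible. A fit with array weights called 1 gene lower, and so did leaving out null Hras DMSO replicate 1. Tyrp1, for example, was at 11.42, 11.65 and 11.64 in wild-type cells and at 11.29, 11.49 and 11.49 in null cells, which overlap. Sox10 arrays did not overlap, between 8.05 and 8.09 in wild-type and between 7.87 and 8.01 in null cells. The share of all genes without overlap in this comparison is not given here.

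With Hras and GW0742 the null cells were the higher ones. The count was 5 of 10, where 9.91% of all genes were called higher, and the median was 0.21 against 0.04 over all genes. Dct had a mean of 10.88 ± 0.14 (SD, n = 3) on the wild-type arrays and of 11.30 ± 0.24 on the null arrays, a difference of 0.42 ± 0.09 (adjusted p = 0.0011). Mitf was at 8.61, 8.98 and 8.84 against 9.11, 9.24 and 9.16, a difference of 0.36 ± 0.09 (adjusted p = 0.00476). The arrays of these genes did not overlap between genotypes, which held for 6 of 10 genes and 14.7% of all genes. Tyrp1 differed by 0.30 ± 0.08 (adjusted p = 0.0077), Tyr by 0.29 ± 0.10 (adjusted p = 0.041) and Slc45a2 by 0.25 ± 0.08 (adjusted p = 0.0214).

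This comparison rests on the spread borrowed from the other groups. In a model of its own 6 arrays 0 of the 10 genes passed, with adjusted p between 0.0749 and 0.26 for the 5 genes just named. The count was 3 without wild-type Hras GW0742 replicate 1 and 3 without null Hras GW0742 replicate 2, the array with the highest mean of the 10 genes among the Hras arrays. Tyr missed the threshold without either, at 0.16 (adjusted p = 0.262) and 0.19 (adjusted p = 0.235), Tyrp1 without the latter (0.0668), and Slc45a2 without replicate 1 or 3 of the wild-type or replicate 3 of the null group (between 0.0671 and 0.105). Array weights raised the Dct and Tyr differences to 0.64 and 0.44. Those weights were 4.606 for null Hras GW0742 replicate 2 and 0.219 and 0.315 for replicates 1 and 3. The weighted values of that group therefore rest mostly on replicate 2.

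In null Hras cells most of the melanocyte genes were higher with GW0742 than with DMSO. The origin of the replicates is not stated, and the cause of this difference was not tested. There 7 of 10 rose, where 3.51% of all genes were called higher, and the median was 0.29 against 0.00 over all genes. Tyrp1 was at 11.29, 11.49 and 11.49 with DMSO and at 11.77, 12.12 and 11.98 with GW0742, a rise of 0.54 ± 0.08 (1.45-fold, adjusted p = 0.000279). Dct was at 10.74, 10.91 and 10.85 with DMSO and at 11.08, 11.55 and 11.27 with GW0742, a rise of 0.47 ± 0.09 (adjusted p = 0.00233). For these genes each GW0742 array was above each DMSO array, as for 9 of the 10 genes and 8.62% of all genes.

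The other 5 rises covered a channel, melanosome proteins, a regulator and the receptor. Trpm1 rose by 0.36 ± 0.07 (adjusted p = 0.00233), Mlana by 0.32 ± 0.08 (adjusted p = 0.0172) and Pmel by 0.29 ± 0.08 (adjusted p = 0.0267). Kit was at 7.70, 7.84 and 7.69 with DMSO and between 7.99 and 8.10 with GW0742, a rise of 0.29 ± 0.05 (adjusted p = 0.00193). Sox10 was at 7.93, 8.01 and 7.87 and then at 8.15, 8.30 and 8.12, a rise of 0.25 ± 0.06 (adjusted p = 0.0168). The 3 that did not pass were Tyr at 0.30 ± 0.10 (adjusted p = 0.0928), Slc45a2 at 0.20 ± 0.08 (adjusted p = 0.163) and Mitf at 0.15 ± 0.09 (adjusted p = 0.415).

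These rises came from the group with the widest spread. In a model of its own 6 arrays 0 of 10 passed, with adjusted p from 0.139 for Tyrp1 to 0.359 for Mlana. The count was 4 without null Hras DMSO replicate 3 and 4 without null Hras GW0742 replicate 2, which was above its group mean for 9 of the 10 genes. Dct, Tyrp1, Trpm1 and Kit kept their calls in both cases, while Mlana, Pmel and Sox10 lost theirs (adjusted p between 0.0754 and 0.191). Pmel (0.107) and Sox10 (0.0577) were also lost without null Hras DMSO replicate 1, and Mlana (0.0611) without replicate 2. With arrays centred on their medians Pmel was lost as well (0.0501).

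In the other 3 conditions at most 1 of the 10 genes passed the threshold between GW0742 and DMSO. In wild-type Hras cells Trpm1 alone rose, where 4.46% of all genes were called higher: it was at 6.93, 7.10 and 6.99 with DMSO and at 7.27, 7.19 and 7.31 with GW0742, a rise of 0.25 ± 0.07 (adjusted p = 0.025). The sets did not overlap, as for 2 of 10 genes and 11.3% of all genes, but the call was lost without wild-type Hras DMSO replicate 1 or 3 or wild-type Hras GW0742 replicate 1 or 3 (adjusted p between 0.0755 and 0.143) and in a model of these 6 arrays (adjusted p = 0.0861). The median of the 10 genes was 0.12, and the largest upper bound of a 95% interval was 0.39, for Trpm1.

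In wild-type mock cells limma called 0 of 10, where 2.86% of all genes were called in either direction. Under an unadjusted p of 0.05 were 6 of 10, and 2613 of all 19937 genes. The 10 differences were all below 0, with a median of -0.16 against 0.00 over all genes. They come from the same arrays, so their signs are not independent of each other. For 8 of 10 genes each GW0742 array was below each DMSO array, against 13.3% of all genes. Tyr was at 7.61, 7.67 and 7.61 with DMSO and at 7.33, 7.33 and 7.37 with GW0742, a difference of -0.29 ± 0.10 (adjusted p = 0.16). For Mlana it was -0.26 ± 0.08 (adjusted p = 0.096) and for Trpm1 -0.22 ± 0.07 (adjusted p = 0.0854). These 3 were the largest differences in size, and their 95% intervals reached down to -0.49, -0.42 and -0.36.

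In null mock cells 0 of 10 passed limma's test and 0 were under an unadjusted p of 0.05, where 0 of all genes passed and 1097 were under that unadjusted value. The differences ran from -0.15 ± 0.10 for Tyr to 0.11 ± 0.06 for Sox10, with a median of -0.01. Their 95% intervals ran from -0.36 to 0.24, so changes of that size remain possible.

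**Figure D3:**
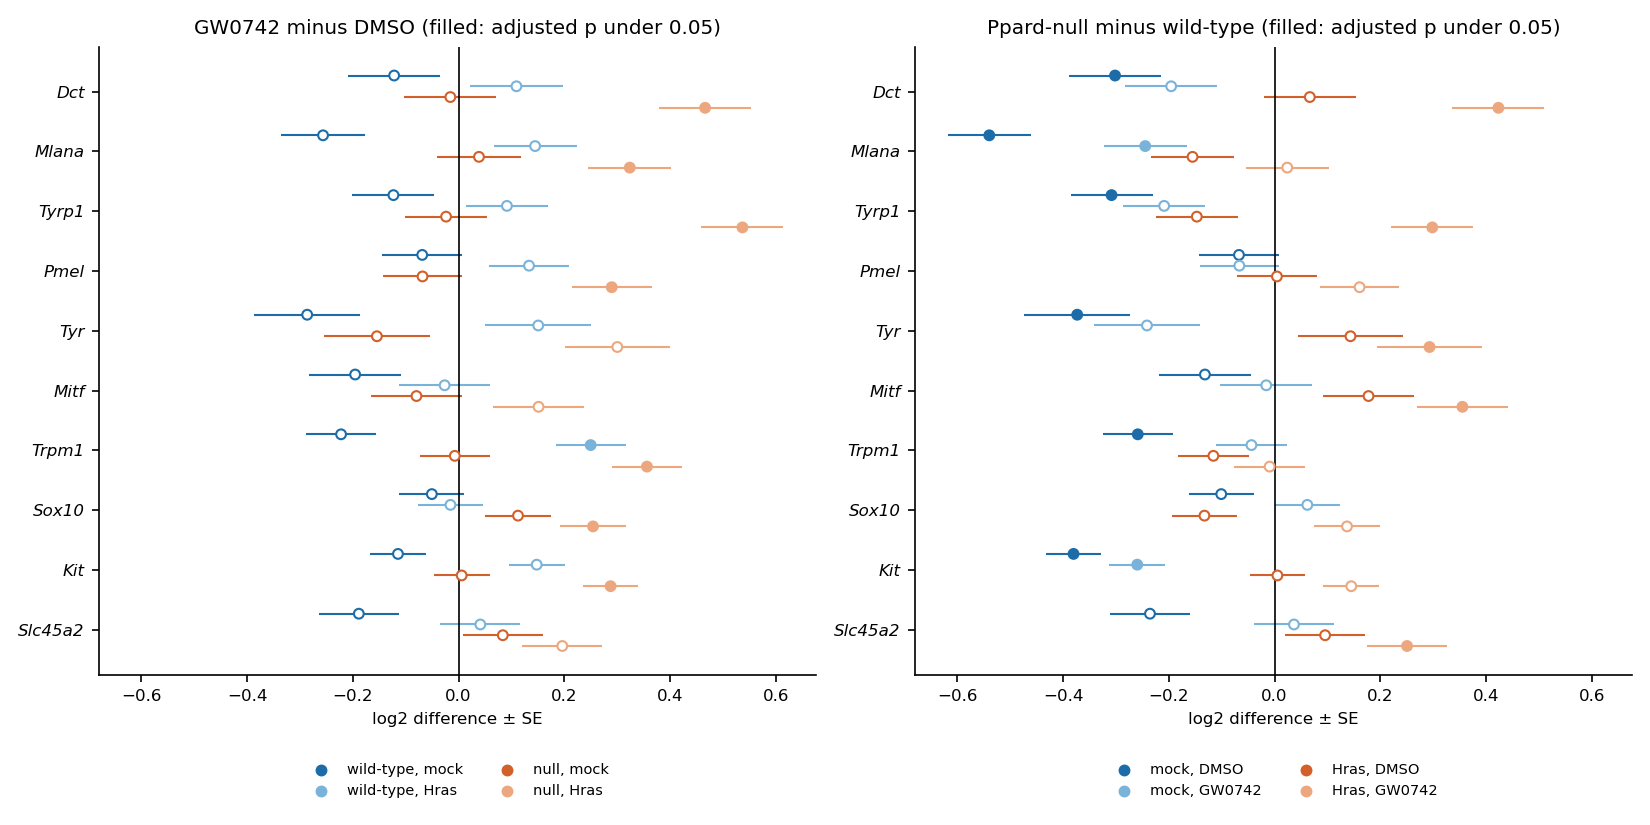
Log2 difference (x axis) of each of the 10 genes between GW0742 and DMSO (left) and between Ppard-null and wild-type cells (right), with bars of ± 1 SE from the model of 24 arrays and the conditions named in the keys. Filled points passed adjusted p under 0.05. On the left the filled points are 7 genes in null Hras cells and Trpm1 in wild-type Hras cells; on the right 6 genes are lower in null mock DMSO cells and 5 are higher in null Hras GW0742 cells.

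Whether the response to GW0742 differed between conditions was tested directly. In Hras cells it differed between genotypes for 1 of 10 genes, Tyrp1, at 0.45 ± 0.11 (adjusted p = 0.0392), where 0.517% of all genes were called in that direction. That call was lost in 10 of 20 alternatives, among them a model of the 12 Hras arrays (adjusted p = 0.327) and the removal of 8 of the 12 Hras arrays in turn, which were the 3 wild-type GW0742 arrays, wild-type DMSO replicates 2 and 3, null DMSO replicate 1 and null GW0742 replicates 2 and 3 (adjusted p between 0.0545 and 0.123). In mock cells it differed for 0 of 10, with 3 under an unadjusted p of 0.05 (1842 of all 19937 genes) and 0.848% of all genes called. Between Hras and mock cells it differed for Trpm1 in wild-type cells, at 0.47 ± 0.09 (adjusted p = 0.00683, 2.05% of all genes higher), and for Tyrp1 in null cells, at 0.56 ± 0.11 (adjusted p = 0.0108, 1.39% of all genes higher); a model of the 12 null arrays lost the latter call (adjusted p = 0.0861). In null cells Dct at 0.48 ± 0.12 (adjusted p = 0.0515), Trpm1 at 0.36 ± 0.09 (adjusted p = 0.0546) and Kit at 0.28 ± 0.07 (adjusted p = 0.0613) did not pass. The comparisons above share groups of arrays, so they are not independent of each other.

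Over the 8 groups, wild-type mock DMSO had the highest mean for 9 of the 10 genes, and null mock GW0742 for Sox10. The lowest mean was in wild-type Hras DMSO for 5 genes, in null Hras DMSO for 4 and in wild-type Hras GW0742 for Mitf. Among the Hras groups, null GW0742 had the highest mean for 9 of 10 genes, the exception being Trpm1. Neighbours in the order often overlapped: for Dct, wild-type Hras GW0742, null Hras DMSO and wild-type Hras DMSO followed each other with overlapping arrays, while null Hras GW0742 stood apart from the group above and the group below. For Sox10 the 4 mock groups overlapped one after another.

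Arrays of a group that were high for a given melanocyte gene tended to be high for the others. With the group means removed, the correlation of each gene with the mean of the other 9 over the 24 arrays was 0.852 for Dct, 0.816 for Tyrp1, 0.712 for Pmel, 0.635 for Mitf, 0.633 for Trpm1 and 0.615 for Tyr. It was lower for Sox10 (0.477), Kit (0.398), Slc45a2 (0.349) and Mlana (0.220). The closest pair was Dct and Tyrp1 at 0.841, and the least alike were Mlana and Slc45a2 at -0.217. These values are descriptions over arrays that share a normalization, and without the 3 null Hras GW0742 arrays the Mlana value was -0.044, that of Kit 0.241, that of Sox10 0.318 and that of Slc45a2 0.706.

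Some genes outside the list correlated with the 10 over the arrays. By level, the genes most like the mean of the 10 over 24 arrays were Irak3 (r = 0.987), a brake on Toll-like receptor signalling, Cebpa (0.985), a transcription factor of keratinocyte differentiation, Mical2 (0.983), which acts on actin, Scel (0.981), a cornified envelope protein, and Ednrb (0.980), the endothelin receptor of melanocytes. With group means removed they were Cds1 (0.882), an enzyme of phospholipid synthesis, Tmem269 (0.855), Csta3 (0.853), Irak3 (0.853) and Adgrf4 (0.845), an adhesion receptor. This second measure leaves out the differences between groups. Tmem269 was higher with Hras in null GW0742 cells, by 0.82 ± 0.12 (adjusted p = 6.16e-06), where Cds1, Csta3, Irak3 and Adgrf4 fell. These correlations describe 8 groups of 3 arrays that share normalization.

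Other genes of the pigment pathway were measured as well. Of 18 further melanosome and pigment genes, 12 fell (19.0% of all genes) and 2 rose with Hras in wild-type DMSO cells, with a median of -0.49 against 0.02 over all genes. The largest falls were Rab38 at -1.37 ± 0.10 and Rab27a at -0.82 ± 0.07, which traffic melanosome cargo and melanosomes, Slc24a5 at -1.22 ± 0.09, a melanosomal ion exchanger, and Gpr143 at -0.77 ± 0.11, a melanosomal receptor. In null DMSO cells 10 fell (20.5% of all genes) and 0 rose. In null Hras cells 5 of the 18 rose with GW0742 (3.51% of all genes) and 0 fell: Cited1 by 0.47 ± 0.08, Atp7a, which loads tyrosinase with copper, by 0.42 ± 0.08, Oca2 by 0.36 ± 0.08, Slc24a5 by 0.35 ± 0.09 and Ptgds by 0.28 ± 0.08. In mock DMSO cells 3 were lower (5.53% of all genes) and 1 higher in null cells, the lower ones being Hps5 at -0.41 ± 0.08, Slc24a5 at -0.38 ± 0.09 and Oca2 at -0.37 ± 0.08. Rab27a, Atp7a and other genes of this list are also expressed outside melanocytes.

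Receptors and regulators of melanocytes formed a further list. Of 15 measured, 10 fell (19.0% of all genes) and 2 rose with Hras in wild-type DMSO cells, led by Zeb2 at -1.41 ± 0.08, Ednrb at -1.14 ± 0.07, Lef1 at -0.67 ± 0.06 and Pax3, which activates Mitf, at -0.64 ± 0.07. In null DMSO cells 9 fell (20.5% of all genes) and 1 rose. Ednrb had group means between 8.52 and 8.75 in mock cells and between 7.61 and 7.95 in Hras cells, and Mc1r, the melanocortin receptor, between 7.64 and 7.74 and between 7.42 and 7.74. In null Hras cells 2 of the 15 were higher with GW0742 (3.51% of all genes), Ednrb by 0.30 ± 0.07 (adjusted p = 0.017) and Mc1r by 0.30 ± 0.08 (adjusted p = 0.0251).

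The ligands that act on melanocytes were not uniform in direction. Of 15 listed, 13 were measured, and with Hras 2 rose and 4 fell in wild-type DMSO cells and 4 rose and 5 fell in null DMSO cells. Over all genes 19.0% were called lower in the wild-type and 20.5% in the null comparison. Kitl, the ligand of KIT, had mean levels of 8.48 ± 0.02 (SD, n = 3) in wild-type mock DMSO and 8.77 ± 0.20 in wild-type Hras DMSO cells, and of 8.19 ± 0.04 and 9.56 ± 0.30 in the null counterparts. The change with Hras was 0.29 ± 0.11 in wild-type cells (adjusted p = 0.0562) and 1.37 ± 0.11 in null cells (adjusted p = 2.11e-09), and the 2 changes differed by 1.08 ± 0.16 (adjusted p = 6.93e-05). Kitl was thus highest in the null Hras groups, in which its receptor gene Kit was lower than in null mock cells.

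Edn1, the endothelin that EDNRB binds, showed the reverse. Its mean was 10.16 ± 0.05 in wild-type mock DMSO and 9.90 ± 0.18 in wild-type Hras DMSO cells, and 10.65 ± 0.11 and 8.58 ± 0.28 in the null counterparts. The change was -0.26 ± 0.10 in wild-type cells (adjusted p = 0.052) and -2.07 ± 0.10 in null cells (adjusted p = 5.02e-13), and the changes differed by -1.80 ± 0.15 (adjusted p = 5.59e-08). Csf2 rose by 3.83 ± 0.22 in wild-type and 2.53 ± 0.22 in null DMSO cells, and Nrg1 by 1.68 ± 0.07 and 2.40 ± 0.07. GW0742 raised Csf2 in wild-type Hras cells by 0.95 ± 0.22 (adjusted p = 0.00895), and in null Hras cells Wnt4 was the 1 ligand that rose, by 0.43 ± 0.09 (adjusted p = 0.00601).

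**Figure D4:**
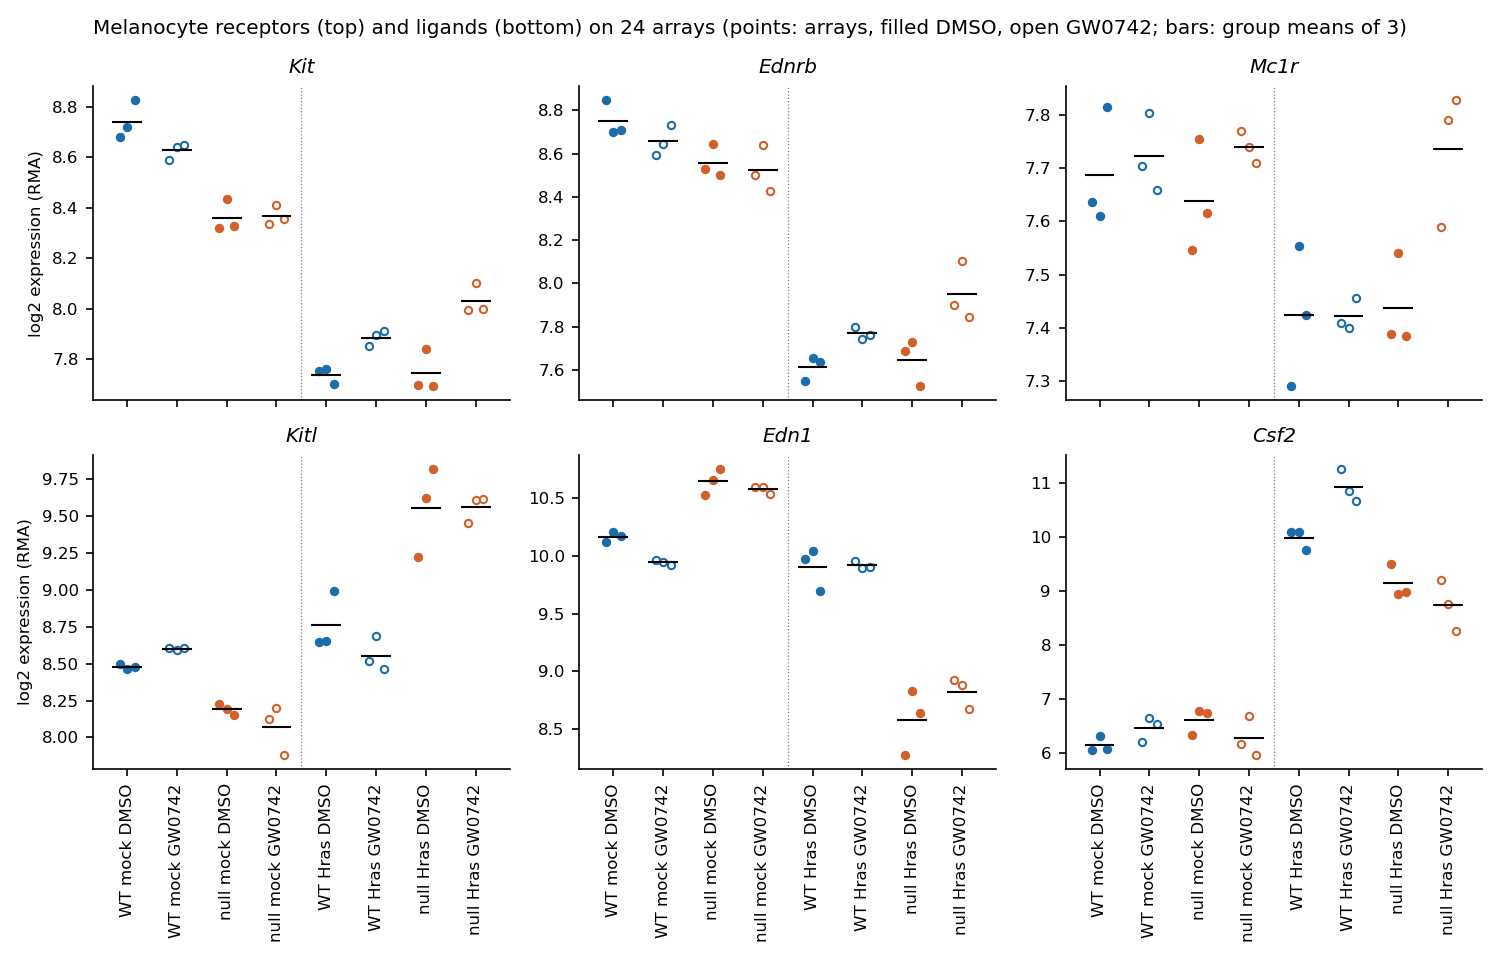
Log2 level (RMA, y axis) of 3 receptor genes of melanocytes (top) and 3 ligand genes (bottom) on every array, by group (x axis), with the colours and symbols of the plot of the 10 genes and bars for means of 3 arrays. Kit and Ednrb are lower on the Hras arrays, Kitl is highest and Edn1 lowest in the null Hras groups, and Csf2 is higher in all Hras groups.

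Markers of other cells changed with Hras too. Of 12 fibroblast markers 11 fell in wild-type DMSO cells (19.0% of all genes), with a median of -1.20, and their mean level was between 8.94 and 9.10 on wild-type mock arrays, 8.44 and 8.52 on null mock arrays and 7.81 and 8.12 on Hras arrays. Their lower level in null mock DMSO cells (10 of 12 lower, against 5.53% of all genes, median -0.64) stood beside the lower melanocyte genes there. The Hras effect on them was also smaller in null cells, with 9 of 12 differing in that direction (8.35% of all genes) and 1 in the other in DMSO, and 7 (11.5% of all genes) and 0 in GW0742. In null Hras cells 0 of them were higher with GW0742 and 1 was lower, Pdgfrb, by 0.26 ± 0.07. The part of fibroblasts in the results on melanocyte genes was not tested.

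Keratinocyte markers moved as well. Of 7 markers of differentiated keratinocytes 6 fell with Hras in wild-type DMSO cells (19.0% of all genes), with a median of -2.53. Their mean level was between 11.96 and 12.15 on mock arrays, between 9.35 and 10.02 on wild-type Hras arrays, between 9.97 and 10.18 with null Hras DMSO and between 10.30 and 10.62 with null Hras GW0742. With GW0742, 3 of the 7 were higher in null Hras cells (3.51% of all genes). In wild-type Hras cells 4 were higher with GW0742 (4.46% of all genes) and 1 was lower. Of 7 basal keratinocyte markers 4 fell with Hras in wild-type DMSO cells, Trp63 by 1.02 ± 0.06, and Trp63 rose with GW0742 in null Hras cells by 0.37 ± 0.06. How these changes in the keratinocytes bear on the share of melanocyte RNA was not tested.

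For the other cells that express Kit or Sox10, 9 mast cell markers gave 0 limma calls with Hras or GW0742 in any condition. At an unadjusted p of 0.05 there were 0 in the Hras comparisons and 1 with GW0742, in null mock cells, and their mean level stayed between 5.60 and 5.90 on the 24 arrays. Of 9 Schwann cell markers 2 rose and 3 fell with Hras in wild-type DMSO cells, among them Cdh19 at -0.62 ± 0.10 and Pou3f1 at -2.37 ± 0.09, a gene that keratinocytes also express. The mean level of the 9 Schwann markers was between 8.09 and 8.32 on mock arrays and between 7.79 and 8.04 on Hras arrays. That mean includes the large fall of Pou3f1, so it does not describe a fall shared by the 9 markers. In null Hras cells 1 Schwann marker was higher with GW0742, Egr2, by 0.65 ± 0.13. With Hras in wild-type DMSO cells the calls were 2 higher and 1 lower of 7 endothelial markers, 0 higher and 3 lower of 12 leukocyte markers, and 3 higher and 0 lower of 7 Merkel cell markers. Those 3 were Krt18, Krt8 and Piezo2, of which Krt8 and Krt18 are also made by simple epithelia. Over all genes 19.0% were called lower with Hras in wild-type DMSO cells, and the share called higher is not given here. The log2 scale of these arrays has no zero, so no marker could be called absent.

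**Figure D5:**
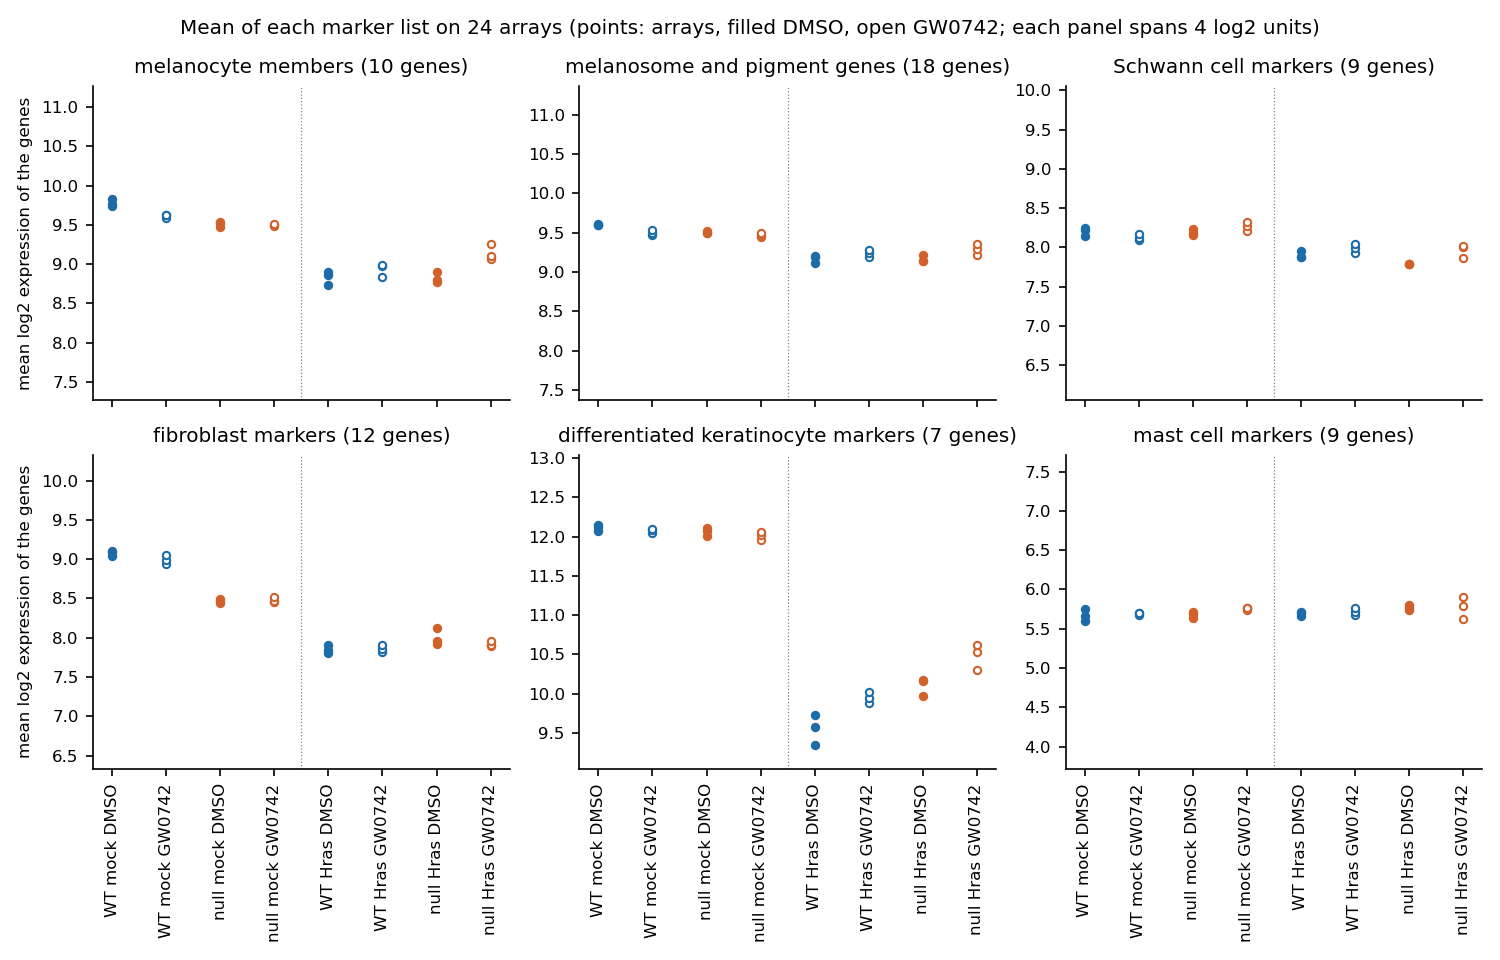
Mean log2 level (y axis) over the genes of 6 marker lists on every array, by group (x axis), with each panel spanning 4 log2 units, filled points for DMSO, open for GW0742, blue for wild-type and orange for null cells. Means of the melanocyte, melanosome and pigment, Schwann cell, fibroblast and differentiated keratinocyte lists are lower on Hras arrays. The Schwann cell mean includes the large fall of Pou3f1, which keratinocytes also express. Fibroblast markers are also lower on null mock arrays, and mast cell markers stay between 5.60 and 5.90.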

How the data were processed

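Total RNA was hybridised to 24 Affymetrix Mouse Gene 1.0 ST arrays. The authors deposited log2 expression values made with RMA, a method that corrects background, quantile-normalizes arrays and summarises probes, per the submitters' processing notes. No software version or build is stated in the labels. Quantile normalization makes array distributions alike, so each value is relative to the other genes. Of 34760 probe sets, 21640 had 1 symbol, 1321 several and 11799 none listed; the brightest per symbol gave 19937 genes. Groups came from the labels. Array medians ran from 7.46 to 7.53. With 3 arrays a group, their number limits the precision.

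A cell-means model was fitted with limma 3.58.1 (R 4.3.3; 16 residual degrees of freedom) without a replicate block, and 18 comparisons were taken. P-values are two-sided. The 10 genes, the 11 other lists (116 of 121 genes measured) and the tests were chosen with earlier results of these data known. Named were the 10 genes in any comparison, up to 4 passing genes per list with the largest change, ligands and receptors with their levels, and 5 genes most like the 10 by each measure; Ppard (the removed gene), Krt5's level and Rab27a and Atp7a as background and Ptgds, to complete a short list, were added after their values were seen. The Hras, Areg and Cdkn1a genes were not analysed here. On data simulated for the Hras effect in wild-type DMSO cells over 19937 genes, the procedure recovered 89% of 100 genes changed 1.5-fold and 100% of 100 changed 2-fold, with 10 false among 199 calls; the draws were independent between genes. Alternatives were array centring, a filter on dim genes, trend and robust moderation, all probe sets or their mean, only the arrays compared, a replicate block and leaving out each array; a model without null Hras GW0742 arrays and array weights were added after seeing the data. Python 3.11.15, pandas 2.3.3 and matplotlib 3.10.9 were used.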

Additional observations from a re-analysis of the deposited data

Results flagged for a closer look

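For 13 effects the difference between genotypes, or between Hras and mock cells, passed limma's interaction test on the log2 scale. The Hras effect was less negative in null than in wild-type DMSO cells by 0.37 for Dct, 0.38 for Mlana, 0.52 for Tyr, 0.39 for Kit and 0.33 for Slc45a2. In GW0742 the same difference was 0.62 for Dct, 0.51 for Tyrp1, 0.53 for Tyr, 0.37 for Mitf and 0.40 for Kit. The response to GW0742 in Hras cells was 0.45 higher in null than in wild-type cells for Tyrp1. Between Hras and mock cells it was 0.47 higher with Hras for Trpm1 in wild-type cells and 0.56 higher with Hras for Tyrp1 in null cells. Several of these differences share arrays, and no explanation of them was tested.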

How the results depend on the processing

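Of 73 calls of the 10 genes, 45 passed in every alternative tried and 28 were lost in at least 1; 0 changed sign. The number of genes lower with Hras was 10, 9 to 10, 10 and 8 to 9 (wild-type DMSO, wild-type GW0742, null DMSO, null GW0742) without each array in turn. Without each array in turn the genes lower in null cells numbered 2 to 5 in mock DMSO, 1 to 2 in mock GW0742 and 0 to 1 in Hras DMSO; those higher in Hras GW0742 numbered 3 to 6. Those higher with GW0742 were 4 to 8 in null Hras and 0 to 1 in wild-type Hras cells. For the differences between effects the counts were 3 to 4 (Hras by genotype, DMSO), 4 to 6 (the same, GW0742), 0 to 2 (GW0742 by genotype, Hras), 1 to 2 (GW0742 by Hras, wild-type) and 1 to 4 (the same, null). The last 3 highest counts came without null Hras GW0742 replicate 1 (2), without wild-type Hras GW0742 replicate 1 or 2 (2), and without null Hras DMSO replicate 2 or null Hras GW0742 replicate 1 (4).

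With the models limited to the arrays compared, the count was 1 for genes lower with GW0742 in wild-type mock cells. It was 0 for those higher with GW0742 in wild-type Hras and 0 in null Hras cells. It was 5 for those lower in null mock GW0742 cells and 0 for those higher in null Hras GW0742 cells. For GW0742 by genotype with Hras it was 0, and for GW0742 by Hras in null cells it was 0. With array weights these counts were 3 (wild-type mock), 5 (null mock GW0742), 8 (null Hras GW0742), 4 (GW0742 by genotype, Hras) and 7 (GW0742 by Hras, null), with 4 for GW0742 by Hras in wild-type cells and 1 lower in null Hras DMSO cells. The weighted counts that involve null Hras GW0742 cells rest mostly on replicate 2 of that group, whose weight was 4.606. For GW0742 in wild-type mock cells the count was 2 without the lowest 40% of genes, 1 with trend and robust moderation and 1 without the null Hras GW0742 arrays, which also gave 4 for null mock GW0742. For GW0742 by Hras in wild-type cells it was 3 with centred arrays, 3 without the dim genes, 2 with trend and 2 without null Hras GW0742 arrays; in null cells it was 2, 4 and 3 for the first 3 of these. Centring gave 0 for GW0742 by genotype with Hras. Leaving out the dimmest 40% of genes left Tyr untested. The covariation of Mlana changed sign, to -0.044, without the null Hras GW0742 arrays. The cause was not tested for any of these. Shares of all genes called are given here for the main model alone. A count under an alternative can therefore not be set against all genes under the same fit.

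Replicate numbers were not treated as pairs, since the labels give no shared source and 12 of 84 same-number pairs had deviations correlated above 0.1 (range -0.287 to 0.253, median 0.015). As a hint from the data, 12 of 24 arrays correlated best with their own number. The replicate block gave 1 (GW0742, wild-type mock), 4 (null against wild-type, mock GW0742), 2 (GW0742 by Hras, wild-type) and 5 (the same, null).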

Other observations

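The 3 arrays of a group did not have equal levels of the 10 melanocyte genes. The array numbered 2 had the highest mean over the 10 genes in 7 of the 8 groups, and the array numbered 1 the lowest in 6, the 4 Hras groups and both null mock groups. The Hras means were 8.74, 8.90 and 8.86 in wild-type DMSO, 8.84, 8.99 and 8.98 in wild-type GW0742, 8.78, 8.90 and 8.80 in null DMSO and 9.06, 9.26 and 9.10 in null GW0742 cells, for replicates 1, 2 and 3. In the mock groups the range of means was narrower, with means between 9.75 and 9.82, 9.59 and 9.63, 9.47 and 9.53 and 9.49 and 9.51 in the same order of genotype and ligand. In null Hras GW0742 cells 9 of 10 genes were above their group mean on the array numbered 2 and 1 of 10 on the array numbered 1. The pattern was noticed in these values, was not tested, and the labels do not say that a number is shared between groups.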
